A study of Mus musculus with 6 samples.

Results

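The chaperones, disulfide isomerases, degradation factors and stress sensors of the endoplasmic reticulum were followed in the RNA of newborn mouse lenses. The genes came from a written list of 34 symbols, all of which were matched to Entrez identifiers among the 27179 genes of the deposited table. Of these, 32 had enough reads to be tested, and Ern1 and Derl3 did not. The libraries were 3 of lenses labelled Gclc KO (KO 1 to 3 here) and 3 of lenses labelled Gclc CON (CON 1 to 3), all from pups of a B6/FVB background on postnatal day 1. Gclc encodes the catalytic subunit of the enzyme that limits glutathione synthesis. The labels name no Cre driver or deleted exon, and do not say how many animals stand behind a library.

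The endoplasmic reticulum is where secreted and membrane proteins fold. Its HSP70, BiP (gene Hspa5), binds unfolded chains, lectin chaperones hold glycoproteins, and disulfide isomerases shuffle the bonds between cysteines. Chains that fail to fold are drawn back into the cytosol and degraded. When unfolded chains accumulate, the membrane sensors IRE1 (Ern1), PERK (Eif2ak3) and ATF6 start the unfolded protein response. IRE1 splices the messenger of the transcription factor XBP1, ATF6 is cut to release a factor that drives chaperone genes, and PERK slows translation and favours ATF4. Lens fibre cells lose their endoplasmic reticulum as they mature, whereas lens epithelial cells keep it and secrete the capsule.

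Part of this machinery was higher in KO lenses. Of the 32 tested genes, 9 rose and 0 fell by limma with Benjamini-Hochberg adjustment (threshold 0.05, 11468 genes), where 6.91% of all genes were called higher and 4.39% lower. The 9 were Hspa5, its partners Dnajb9, Dnajc10 and Sdf2l1, the transcription factor gene Xbp1, the disulfide isomerase gene P4hb, the secreted factors Creld2 and Manf, and the degradation gene Herpud1. They made up 28.1% of the tested members. The members were chosen with earlier results of these data known, so the excess over all genes is a description and not a test. The median log2 difference (KO minus CON) over the 32 genes was 0.54, beside 0.03 over all tested genes, and 24 differences were positive and 8 negative. All 3 KO libraries lay above all 3 CON libraries for 17 of the 32 (16.9% of all tested genes did so), and for 0 they lay below (14.1% of all). Eif2ak3 and Edem1, both among the 17, passed the filter on the mean of all 6 libraries only through their KO values. Their CON means, 7.246 and 7.265 on the deposited scale, lay less than 1 unit above the lowest value (6.504). The 9 calls were not equally firm. Hspa5, Dnajb9, Creld2 and Herpud1 kept theirs whichever single library was left out, and the other 5 did not, and leaving out KO 2 or KO 3 brought the count down to 4 or 5. KO 2 and KO 3 also have library names written in another style, and with that style as a covariate 1 member, Hspa5, was called at a median over the members of 0.57; in that fit KO 1 alone stands against the CON libraries. Under a filter of 3 log2 units over the floor of the table, 8 of 27 members were called higher, beside 6.79% of the 5010 genes that passed it. At an unadjusted p under 0.05, limma also found 0 members lower. Voom on recovered reads also called 0 lower and 9 higher.

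**Figure D1:**
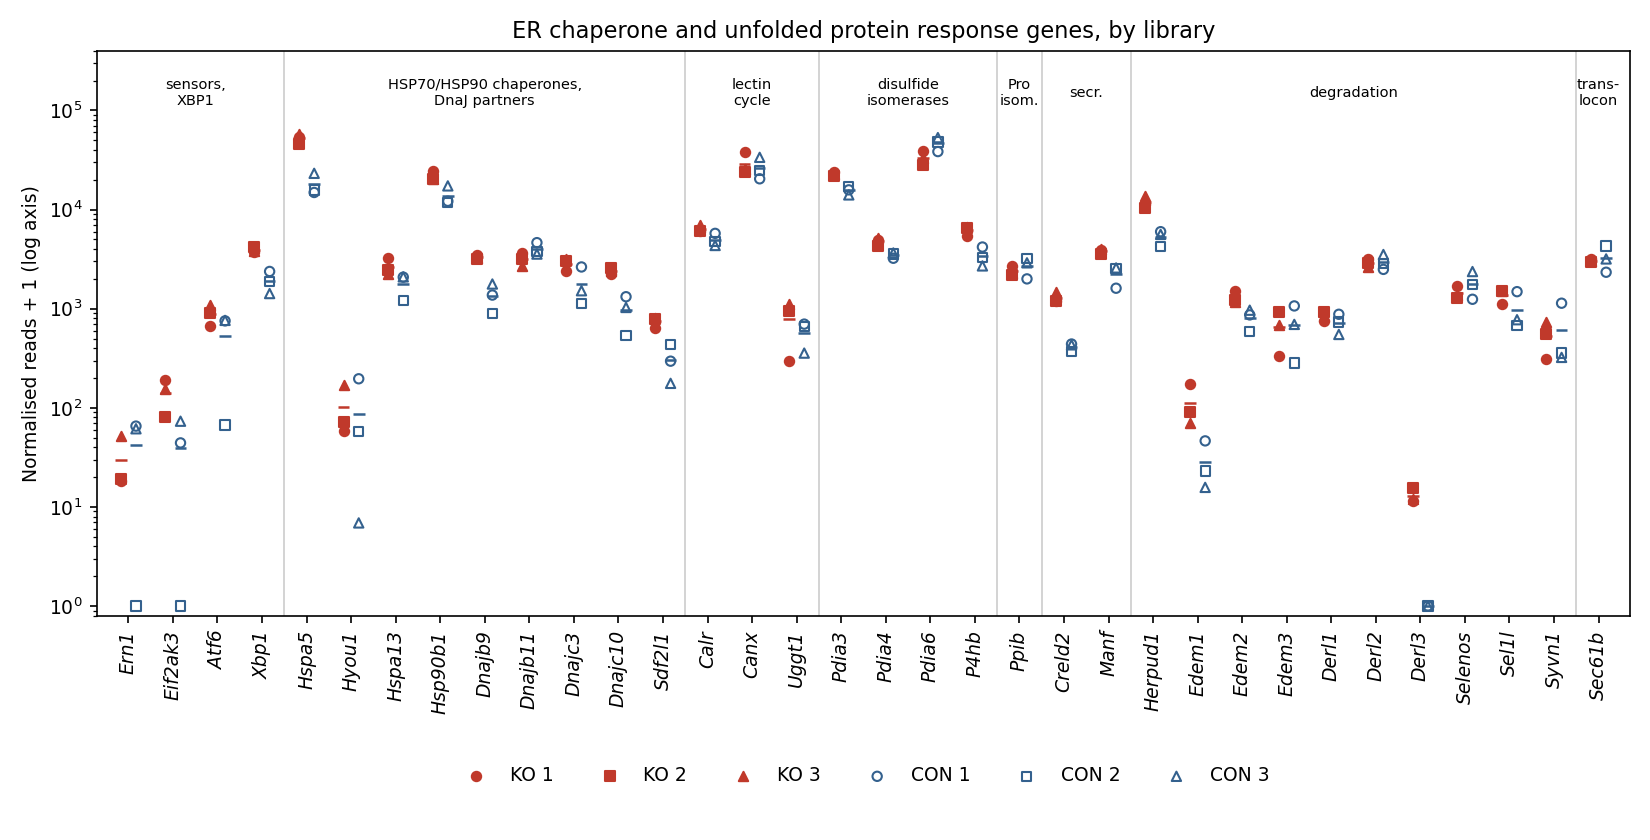
Normalised reads plus 1 (log axis) of the 34 genes in each library, grouped by role, with KO 1 to 3 as filled red and CON 1 to 3 as open blue symbols and short lines at the group means. Hspa5, Creld2 and Xbp1 show KO symbols clear of the CON symbols, whereas Canx, Ppib and Sec61b overlap and Derl3 has no read in CON.

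Values below are normalised reads, that is, reads recovered from the deposited values and divided by the library's size factor, and they are listed in the order of libraries 1, 2 and 3 of each group. The log2 differences were taken between the deposited values themselves, whose transformation compresses differences at low counts. The libraries held 45842484 to 61219009 reads in genes in KO and 20361430 to 43384443 in CON, with CON 2 the shallowest. The column name of CON 2 also ends in L003, where every other library has L001, and whether this bears on its values was not tested. Crystallins took 40.5% to 47.5% of the reads in KO and 59.5% to 68.4% in CON, and the fibre membrane gene Mip had 64239.6, 49253 and 59712 normalised reads in the KO libraries and 222688, 192854 and 182282 in the CON libraries, so fibre RNA was abundant in all 6 libraries. Gclc, the targeted gene, had 17.9, 72.1 and 58.1 normalised reads in the KO libraries and 178, 283 and 173 in the CON libraries (log2 difference -1.01, SE 0.28, adjusted p = 0.0387); its call was lost in 5 of the 6 fits without 1 library, all but the fit without CON 1 (adjusted p up to 0.132). The labels do not tie libraries to animals or litters; each p-value therefore reflects variation among these 6 libraries, which may be technical. The lenses were measured whole, so fewer cells of a type and less RNA per cell cannot be told apart. In the same libraries all 9 listed fibre markers fell, with summed levels of 294791 to 413461 normalised reads in KO and 799384 to 1046880.2 in CON. Of 14 macrophage markers 11 rose and 0 fell, where 6.91% of all tested genes were called higher and 4.39% lower. The summed levels of the 14 were 6705 to 20501 normalised reads in KO and 1775 to 3050.3 in CON. Among the defining ones, Csf1r had 947, 814 and 472 normalised reads in KO, against 395, 195 and 106 in CON. Adgre1 had 1771, 465 and 329 in KO, against 46.5, 0 and 124 in CON, and Ptprc had 339, 171 and 103 in KO, against 24.3, 0 and 2.95 in CON. Adgre1 and Ptprc had no read in CON 2. They and Cd14, which also rose, passed the filter on the mean of all 6 libraries only through their KO values. The CON means of Adgre1, Ptprc and Cd14 were 7.375, 6.837 and 7.144 on the deposited scale, less than 1 unit above the lowest value (6.504). Of the other marker lists, 10 of 16 crystallins fell, as did 3 of 5 lens epithelium, 1 of 3 fibroblast and 1 of 4 red cell markers, while 1 marker each of lens epithelium, fibroblasts, pigment cells and retinal neurons rose and none of 7 endothelial ones was called. The part of these cells in the results below was not tested. Among the KO libraries the macrophage sum was highest in KO 1 (20501) and lowest in KO 3 (6705). Of the 32 tested members, 14 had their highest KO value in KO 1, 5 in KO 2 and 13 in KO 3. The lowest KO value lay in KO 1 for 14 members, in KO 2 for 13 and in KO 3 for 5.

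The sensors stood at low levels. Ern1, which encodes the nuclease and kinase IRE1, had 17.3, 18 and 51.3 normalised reads in the KO libraries and 64.4, 0 and 60.5 in the CON libraries; the groups overlapped, CON 2 had no read, and the gene had too few reads to be tested. Eif2ak3, the gene of the kinase PERK, had 189, 80.0 and 155 normalised reads in the KO libraries and 43.3, 0 and 72.3 in the CON libraries. Every KO library was above every CON library, and the difference did not pass (log2 difference 0.93, SE 0.35, adjusted p = 0.111). A count of 0 in CON 2 allows up to 9.44 normalised reads, in counting error only, for this gene and for Ern1. Atf6 had 668, 908 and 1083 normalised reads in the KO libraries and 753, 66.1 and 761 in the CON libraries; CON 2 was far below the 5 others, which overlapped (log2 difference 0.89, SE 0.49, adjusted p = 0.276). The sensors are regulated in the first place by modification of the protein, which these data do not measure.

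Xbp1, the target of IRE1, was higher in every KO library than in any CON library. It had 3726, 4193 and 3853 normalised reads in the KO libraries and 2374, 1888 and 1420.4 in the CON libraries, a 2.07-fold difference of means (log2 difference 1.01, SE 0.22, adjusted p = 0.0131). Leaving out KO 2 or KO 3 lost the call (adjusted p up to 0.0807), at log2 differences of 0.96 and 1.02. The stretch that IRE1 removes from the messenger is shown because gene counts cannot resolve it. It is an intron of 26 bases inside coding exon 4 (GRCm38, chr11:5524282-5524307, plus strand), here in capitals within the flanking exon of the transcript Xbp1-201.
Xbp1: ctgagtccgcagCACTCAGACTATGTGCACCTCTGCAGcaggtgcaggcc
Both spliced and unspliced messengers contribute to the gene's count, and their ratio was not measured here.

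Among the chaperones, Hspa5 had the largest difference, and on the deposited scale also the largest of the 32 genes; by ratio of means Edem1 (4.03), Eif2ak3 (3.68) and Creld2 (3.11) exceeded it (2.95). BiP, its product, is the main HSP70 of the compartment and also holds the sensors inactive. The gene had 54569.8, 46315 and 57848 normalised reads in the KO libraries and 14869, 15748 and 23203 in the CON libraries. Every KO library stood above the highest CON library, CON 3, and the means were 52911 ± 5943 in KO and 17940.1 ± 4579 in CON (SD, n = 3 each), 2.95-fold apart (log2 difference 1.57, SE 0.23, adjusted p = 0.00160). It was the only member called under all 17 alternative settings, with adjusted p-values up to 0.0114 when a library was left out. Among the DnaJ partners, which deliver clients to BiP and stimulate its ATPase, Dnajb9 had 3489.5, 3195 and 3219 normalised reads in the KO libraries and 1371, 891 and 1773 in the CON libraries (log2 difference 1.24, SE 0.24, adjusted p = 0.00795). Its KO values were close together and clear of CON. Dnajc10, the gene of the disulfide reductase ERdj5, had 2213, 2569 and 2406 normalised reads in the KO libraries and 1319.5, 538 and 1028 in the CON libraries (log2 difference 1.25, SE 0.27, adjusted p = 0.0133), again without overlap, and lost its call without KO 2 (adjusted p = 0.0666). Sdf2l1, whose product works with BiP and DnaJ partners, had 637, 785 and 805 normalised reads in the KO libraries and 295, 434 and 175.5 in the CON libraries (log2 difference 1.02, SE 0.27, adjusted p = 0.0342). The call of Sdf2l1 was lost without KO 1, KO 2, KO 3 or CON 3 (adjusted p up to 0.148).

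The remaining chaperones did not pass. Hsp90b1, which encodes the HSP90 of the compartment, GRP94, had 24471, 20194 and 20423 normalised reads in the KO libraries and 12129, 11758 and 17328 in the CON libraries. All KO libraries lay above CON 3, the highest CON library, and the gene was not called (log2 difference 0.67, SE 0.21, adjusted p = 0.0671); without CON 3 it was called (0.85, adjusted p = 0.0324). Dnajc3, the gene of the co-chaperone p58IPK, had 2379.7, 3024 and 3161 normalised reads in the KO libraries and 2635, 1133 and 1516 in the CON libraries (log2 difference 0.71, SE 0.28, adjusted p = 0.125). CON 1 lay inside the KO range, and without CON 1 the gene was called (1.02, adjusted p = 0.0131). Hspa13, an HSP70 without the usual client-binding domain, had 3212, 2461 and 2259 normalised reads in the KO libraries and 2079.6, 1205 and 2093 in the CON libraries, with KO above CON by a small margin (log2 difference 0.54, SE 0.25, adjusted p = 0.194). Dnajb11, another DnaJ partner of BiP, ran the other way, with 3686, 3189 and 2712 normalised reads in the KO libraries and 4635, 3748 and 3555 in the CON libraries and a difference of -0.30 (SE 0.21) that did not pass (adjusted p = 0.388). Hyou1, an exchange factor for BiP, had only 57.6, 71.5 and 171 normalised reads in the KO libraries and 195, 56.6 and 5.90 in the CON libraries; CON 1 and CON 3 were the extremes of all 6 libraries, and its difference of 0.26 (SE 0.39) did not pass (adjusted p = 0.726).

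**Figure D2:**
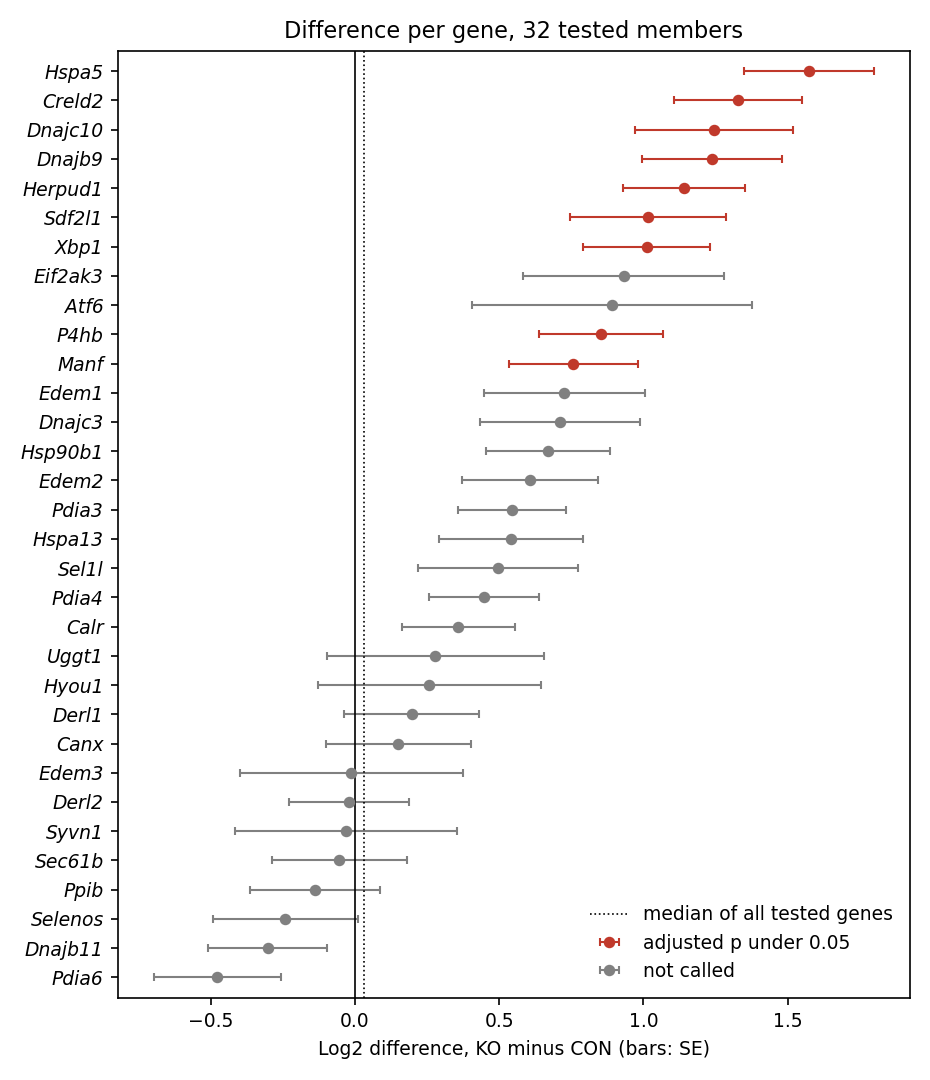
Log2 difference (KO minus CON, deposited scale) of each of the 32 tested genes with its standard error, ordered by size; red points passed an adjusted p of 0.05, and the dotted line is the median of all tested genes (0.03). Hspa5 stands at the top at 1.57 and Pdia6 at the bottom at -0.48, and all 9 red points lie on the positive side.

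In the lectin cycle no gene passed. Calr and Canx encode calreticulin and calnexin, which hold monoglucosylated glycoproteins, and Uggt1 encodes the enzyme that marks unfolded ones for another round. Calr had 6034, 6053 and 6975 normalised reads in the KO libraries and 5749.9, 4733 and 4341 in the CON libraries, without overlap and with a difference of 0.36 (SE 0.20) that did not pass (adjusted p = 0.278). Canx had 37968, 24009 and 25373 normalised reads in the KO libraries and 20427, 24607 and 33634 in the CON libraries; KO 2 and KO 3 lay inside the CON range (log2 difference 0.15, SE 0.25, adjusted p = 0.754). Uggt1 had 298, 954 and 1120.0 normalised reads in the KO libraries and 698, 664 and 355 in the CON libraries, with KO 1 below the whole CON group (log2 difference 0.28, SE 0.38, adjusted p = 0.693).

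The disulfide isomerases split. P4hb, the gene of the founding member PDI, had 5417, 6491 and 6641 normalised reads in the KO libraries and 4188, 3257 and 2701 in the CON libraries. The groups did not overlap, and P4hb was called (log2 difference 0.85, SE 0.21, adjusted p = 0.0259), although not without KO 2, KO 3, CON 2 or CON 3 (adjusted p up to 0.131). Pdia3, whose product ERp57 works with the lectin chaperones, had 24022, 21734 and 22675 normalised reads in the KO libraries and 15802, 17016 and 14054 in the CON libraries, and Pdia4 had 4939, 4328 and 5174 normalised reads in the KO libraries and 3226, 3559 and 3648 in the CON libraries. Both were higher in every KO library than in any CON library, with differences of 0.54 (SE 0.19) and 0.45 (SE 0.19) that did not pass (adjusted p = 0.0865 and 0.158). Pdia6, which encodes the isomerase P5, had 39075, 27988 and 33083 normalised reads in the KO libraries and 38456, 47937 and 53193 in the CON libraries. KO 1 lay just above CON 1, and the difference of -0.48 (SE 0.22) did not pass (adjusted p = 0.191). Scaled to library totals, it turned to 0.37 (adjusted p = 0.0307), where the median of all genes stood at 0.86. Ppib, the gene of the proline isomerase cyclophilin B, had 2712, 2195 and 2301 normalised reads in the KO libraries and 1997, 3204 and 2899.8 in the CON libraries, with both groups mixed (log2 difference -0.14, SE 0.22, adjusted p = 0.748); this gene shares exon sequence with Snx22 on the other strand, which held 1354 to 5145 reads, so their reads are not safely separate.

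Per length, the order of levels of these genes changed between the groups. In normalised reads per kilobase of exon, Pdia6 was the most abundant of the 34 in both, at 15348 ± 2552 in KO and 21393 ± 3434 in CON (SD, n = 3 each). By this measure Hspa5 ranked 2 in KO (14095 ± 1583), within the SD of Pdia6, and 6 in CON (4779 ± 1219.7). In CON, Canx (6119.7 ± 1575), Sec61b (5795 ± 1751), Pdia3 (5640.4 ± 538), Hsp90b1 (4863 ± 1102) and Hspa5 lay within their spread of each other. Within a library, where scaling plays no part, Hspa5 had 1.40, 1.66 and 1.75 reads per read of Pdia6 in KO, against 0.387, 0.329 and 0.436 in CON. Per read of Hsp90b1 it had 2.23, 2.29 and 2.83 in KO, against 1.23, 1.34 and 1.34 in CON. Dnajb9 per read of Dnajb11 stood at 0.947, 1.00 and 1.19 in KO, against 0.296, 0.238 and 0.499 in CON. In each pair the KO ratios lay above all CON ratios, so the paired genes differed unequally between the groups; the choice of pairs was made with values in view. The smallest p that 3 against 3 libraries allow in an exact permutation test is 0.1, so no test was made of the ratios.

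All 34 genes together held 1.37, 1.27 and 1.35% of the reads outside crystallins in KO, against 0.825, 0.795 and 0.892% in CON. Without Hspa5 the other 33 held 1.07, 0.987 and 1.01% in KO, against 0.744, 0.717 and 0.783% in CON. Each of these shares was higher in every KO library than in any CON library. With reads divided by those outside crystallins, the median log2 difference of all genes was 0.235 (voom). In normalised reads the sum of the 34 genes separated the groups, at 208106.5 to 248510 in KO and 152871.4 to 188818.9 in CON. The sum of the 33 without Hspa5 did not, with KO 2 below CON 3. The share of Hspa5 in the reads of the 34 genes was 22, 22.3 and 24.9% in KO and 9.73, 9.77 and 12.3% in CON, and that of Pdia6 15.7, 13.4 and 14.2% in KO and 25.2, 29.8 and 28.2% in CON.

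**Figure D3:**
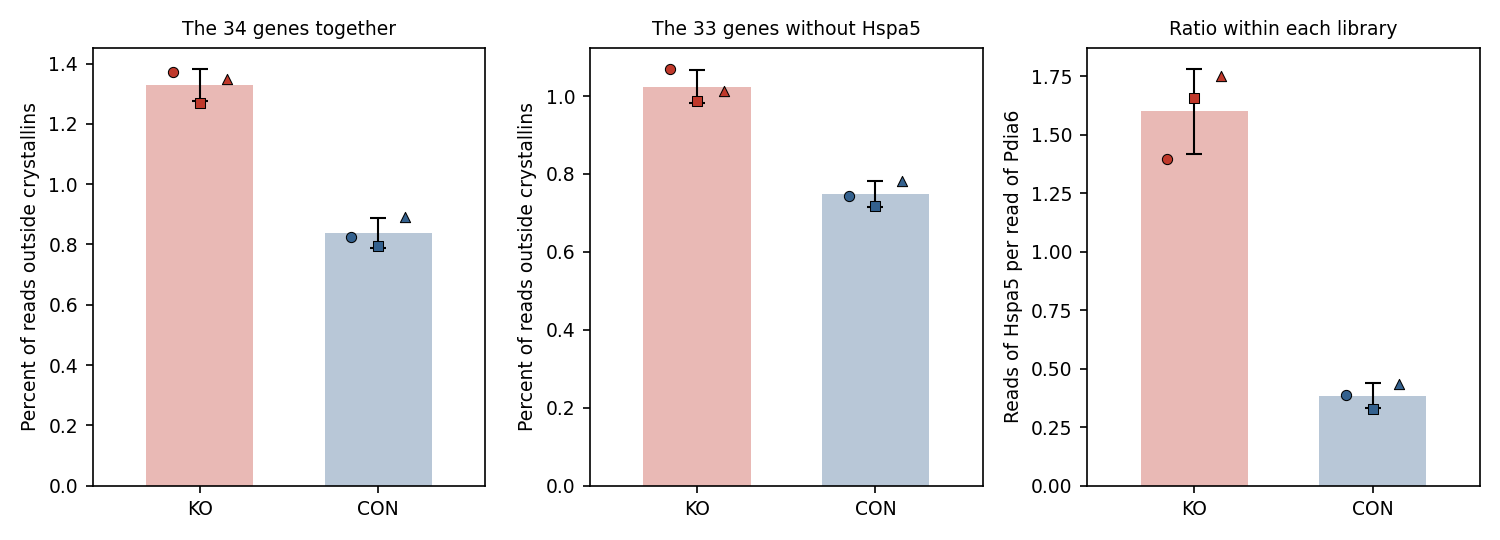
Left and middle, the reads of all 34 genes and of the 33 without Hspa5 as a percent of the reads outside crystallins; right, reads of Hspa5 per read of Pdia6 within each library. Symbols are libraries (circle 1, square 2, triangle 3), bars group means and whiskers SD (n = 3); the share is 1.33% in KO and 0.837% in CON, and no KO library overlaps CON in any panel.

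Both secreted factors rose. Creld2 encodes a secretable protein that is known as a target of the response, and Manf encodes a neurotrophic protein that binds BiP. Creld2 had 1182, 1201 and 1468 normalised reads in the KO libraries and 439, 368 and 431 in the CON libraries, with little spread within either group (log2 difference 1.33, SE 0.22, adjusted p = 0.00348; 3.11-fold). Manf had 3902, 3543 and 4044 normalised reads in the KO libraries and 1608, 2524 and 2577 in the CON libraries and no overlap (log2 difference 0.76, SE 0.22, adjusted p = 0.0494). The Manf call sat at the threshold and was lost without KO 1, KO 2, KO 3, CON 1 or CON 2 (adjusted p up to 0.187).

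Of the degradation genes, Herpud1 alone passed among 9 tested (11.1%, beside 6.91% of all tested genes called higher). Its product HERP helps to assemble the membrane complex that retrotranslocates clients. Herpud1 had 11369, 10272 and 13778 normalised reads in the KO libraries and 5981, 4233 and 5615 in the CON libraries and no overlap (log2 difference 1.14, SE 0.21, adjusted p = 0.00618; 2.24-fold). Edem1 and Edem2, which encode mannosidase-like proteins that mark glycoproteins for disposal, were higher in every KO library without passing. Edem1 had 173, 89.6 and 68.7 normalised reads in the KO libraries and 45.4, 22 and 14.8 in the CON libraries (log2 difference 0.73, SE 0.28, adjusted p = 0.119), and Edem2 had 1499, 1216 and 1178 normalised reads in the KO libraries and 865, 585 and 965 in the CON libraries (log2 difference 0.61, SE 0.24, adjusted p = 0.125). Derl3, the gene of a derlin of the retrotranslocation channel, had 18, 24 and 21 reads in KO 1 to 3, against 0 in each CON library. With 3 reads over the CON group as the floor, its mean level was at least 7.75-fold higher in KO, and with 6 reads at least 3.88-fold; even counts were in excess in every library (51.5% to 55.1% of genes with 1 to 100 reads), and both bounds cover counting error only. Derl3 lay below the filter, and without a filter it was called (0.52, adjusted p = 0.0329).

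The core of the retrotranslocation complex itself showed no call. Sel1l, its adaptor, had 1126, 1522 and 1509 normalised reads in the KO libraries and 1484, 677 and 773 in the CON libraries (log2 difference 0.49, SE 0.28, adjusted p = 0.290); CON 1 lay within the KO range, and without CON 1 the gene was called (0.79, adjusted p = 0.0362). Syvn1, the gene of the ubiquitin ligase HRD1, had 311, 552 and 736 normalised reads in the KO libraries and 1135, 356 and 322 in the CON libraries, where CON 1 was the highest of the 6 libraries (log2 difference -0.03, SE 0.38, adjusted p = 0.972). Among the derlins, which form part of the channel, Derl1 had 746, 919.8 and 851 normalised reads in the KO libraries and 877, 733 and 549 in the CON libraries, and Derl2 had 3204, 2859.7 and 2607 normalised reads in the KO libraries and 2491, 2851 and 3519 in the CON libraries. Their differences were 0.20 (SE 0.23) for Derl1 and -0.02 (SE 0.21) for Derl2. Edem3, a relative of Edem1, had 334, 922 and 679.7 normalised reads in the KO libraries and 1065, 283 and 693 in the CON libraries, a difference of -0.01 (SE 0.39). Selenos, whose selenoprotein recruits the ATPase p97, had 1706, 1277 and 1366 normalised reads in the KO libraries and 1244, 1753 and 2369 in the CON libraries, a difference of -0.24 (SE 0.25). KO and CON overlapped in each of these 4 genes, with adjusted p-values from 0.592 to 0.987. Sec61b, a subunit of the channel through which chains enter, had 3165, 2966 and 3023 normalised reads in the KO libraries and 2331, 4299 and 3176 in the CON libraries, with the KO libraries inside the CON range (log2 difference -0.05, SE 0.23, adjusted p = 0.915). Scaling to library totals turned all 8 negative differences among the members positive, Derl2, Ppib and Sec61b (0.80, 0.72 and 0.83) with a call and Dnajb11, Edem3, Selenos and Syvn1 (0.49, 0.62, 0.57 and 0.72) without one, all below the median of all genes at 0.86. Exons of Derl2, Dnajb9, Eif2ak3, Hsp90b1, Manf, Pdia3, Pdia6 and Syvn1 also overlap another gene on the opposite strand, by 14 to 270 bases. Whether strand was used in counting is not given in the sources used here.

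Some promoters of these genes held a known sequence element. The endoplasmic reticulum stress response element (ERSE), bound by NF-Y and ATF6, was searched as CCAAT and CCACG with 9 bases between them, and the related ERSE-II as ATTGG and CCACG with 1 base between them, on both strands from 250 bases before to 50 after the start. RefSeq windows (GRCm38.p6) were at hand for 29 of the 34 genes. An ERSE stood in 9 of the 29 (31.0%), against 37 of all 27025 genes with a window (0.137%), and an ERSE-II in 2 (6.90%), against 12 of all (0.0444%). Among the 9082 tested genes with a window, the ERSE share was 0.154% and the ERSE-II share 0.0881%. Both elements contain CCACG, which on its own stood in 79.3% of the 29, in 35.5% of all and in 52.7% of the 9082. The core TGACGTGG of the XBP1 element stood in 0 of the 29, in 0.714% of all and in 1.09% of the 9082. The 9 with an ERSE were Calr, Canx, Creld2, Derl3, Dnajc3, Hsp90b1, Hspa5, Pdia6 and Syvn1, and those with an ERSE-II were Dnajb11 and Herpud1. The element was described in part from the Hspa5, Hsp90b1 and Calr promoters themselves. The list also holds sensors and chaperones of the same response, so the shares are a description. Shown are Hspa5, Creld2 and Herpud1, which rose, and Hsp90b1 and Pdia6, which did not pass, with capitals on each match.
Hspa5 (GRCm38.p6, chr2:34771840-34772139, plus strand): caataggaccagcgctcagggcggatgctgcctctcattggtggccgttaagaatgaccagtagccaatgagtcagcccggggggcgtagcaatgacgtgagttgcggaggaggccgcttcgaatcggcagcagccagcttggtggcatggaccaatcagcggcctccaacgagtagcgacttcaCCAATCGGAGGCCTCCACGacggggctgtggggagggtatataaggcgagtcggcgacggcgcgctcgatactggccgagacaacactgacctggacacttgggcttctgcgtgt
Creld2 (GRCm38.p6, chr15:88819396-88819695, plus strand): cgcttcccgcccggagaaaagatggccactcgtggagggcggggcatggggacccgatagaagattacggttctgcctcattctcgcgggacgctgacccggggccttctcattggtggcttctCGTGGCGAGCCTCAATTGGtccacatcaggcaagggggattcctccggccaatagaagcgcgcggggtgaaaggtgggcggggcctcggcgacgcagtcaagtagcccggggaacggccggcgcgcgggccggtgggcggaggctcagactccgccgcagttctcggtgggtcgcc
Herpud1 (GRCm38.p6, chr8:94386179-94386478, plus strand): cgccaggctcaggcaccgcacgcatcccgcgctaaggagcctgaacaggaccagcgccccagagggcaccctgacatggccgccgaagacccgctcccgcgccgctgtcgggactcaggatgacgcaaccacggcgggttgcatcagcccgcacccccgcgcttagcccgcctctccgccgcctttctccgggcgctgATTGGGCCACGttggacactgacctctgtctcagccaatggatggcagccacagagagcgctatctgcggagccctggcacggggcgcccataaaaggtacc
Hsp90b1 (GRCm38.p6, chr10:86705395-86705694, minus strand): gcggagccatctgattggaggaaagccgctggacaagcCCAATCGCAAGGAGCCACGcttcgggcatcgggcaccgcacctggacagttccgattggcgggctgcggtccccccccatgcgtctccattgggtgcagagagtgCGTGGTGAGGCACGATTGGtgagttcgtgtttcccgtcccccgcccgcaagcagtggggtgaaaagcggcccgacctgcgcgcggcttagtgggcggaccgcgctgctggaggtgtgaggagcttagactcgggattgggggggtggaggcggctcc
Pdia6 (GRCm38.p6, chr12:17266339-17266638, plus strand): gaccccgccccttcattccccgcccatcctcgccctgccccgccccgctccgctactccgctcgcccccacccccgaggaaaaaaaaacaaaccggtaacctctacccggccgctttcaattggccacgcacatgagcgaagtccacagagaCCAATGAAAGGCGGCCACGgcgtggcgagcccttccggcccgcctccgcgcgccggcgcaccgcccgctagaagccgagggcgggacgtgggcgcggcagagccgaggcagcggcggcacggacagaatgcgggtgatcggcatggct
The match in Hspa5 began 65 bases before the start and that in Pdia6 98 before, both on the strand of the gene, and Hsp90b1 held matches on either strand.

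Members with and without a match were among those that rose. Of the 8 tested members with an ERSE, 2 rose (Hspa5 and Creld2), with a median log2 difference of 0.51 and a range from -0.48 for Pdia6 to 1.57 for Hspa5. Of the 19 tested members whose window held no ERSE, 6 rose, with a median of 0.54 and a range from -0.30 for Dnajb11 to 1.25. These 19 include Herpud1, which rose, and Dnajb11, which both have an ERSE-II. Of all tested genes 6.91% were called higher. Dnajb9, Dnajc10, Sdf2l1, Xbp1 and P4hb rose without either element in this window, which says only that these letters are not in it.

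Over 8 further lists of the secretory pathway, with 126 tested genes that are not among the 34, 11 rose (8.73%, beside 6.91% of all tested genes) and 0 fell. Without the list of PERK arm output the count was 7 of 115 (6.09%), so the remaining lists stood near the share over all genes. Over the 8 lists the count that fell was 5 in the fit without CON 1, and 0 in the other fits without a library. In oxidative folding 2 of 18 tested rose, Erp44, which retains thiol proteins (log2 difference 0.96, SE 0.20, adjusted p = 0.0119), and Gpx7, a peroxidase of the compartment (log2 difference 0.86, SE 0.25, adjusted p = 0.0465). Among other folding helpers 1 of 20 rose, the proline isomerase gene Ppic (log2 difference 1.13, SE 0.23, adjusted p = 0.00862). In targeting and translocation 2 of 23 rose, the signal peptidase gene Spcs3 (log2 difference 1.10, SE 0.24, adjusted p = 0.0141) and Srpr, the receptor of the signal recognition particle (log2 difference 0.83, SE 0.24, adjusted p = 0.0456). Of 16 genes of vesicle export and retrieval, 2 rose, the cargo receptor gene Lman1 (log2 difference 1.05, SE 0.19, adjusted p = 0.00556) and Kdelr3, which encodes a receptor that returns escaped chaperones (log2 difference 1.28, SE 0.29, adjusted p = 0.0159). None of 19 other degradation genes, 14 of glycosylation and 5 tested membrane-bound factors or their proteases was called. For the 7 genes that rose, every KO library lay above every CON library; Lman1, for one, had 6343, 7266 and 7196 normalised reads in the KO libraries and 3682, 3012 and 3069 in the CON libraries. The medians of these 7 lists ran from 0.01 to 0.44. Lman1 was the only one of these 7 genes to keep its call whichever library was left out. The others lost theirs without at least 1 KO library (adjusted p up to 0.172 for Gpx7), and leaving out KO 2 or KO 3 brought the count over the 8 lists down to 4 or 6.

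Genes on the list of PERK arm output were called in part. The activity of PERK was not measured here, and its own gene, Eif2ak3, did not pass. This list too was chosen with earlier results of these data known. Of its 11 tested genes 4 rose, beside 6.91% of all tested genes, and the median was 0.38. Atf3, a stress transcription factor, had 1476, 1184 and 1627 normalised reads in the KO libraries and 127, 15.7 and 56.0 in the CON libraries (log2 difference 3.03, SE 0.30, adjusted p = 0.000181). Chac1, which encodes a glutathione-degrading enzyme, had 1159.9, 1118 and 1719 normalised reads in the KO libraries and 253, 148 and 45.7 in the CON libraries (log2 difference 2.39, SE 0.32, adjusted p = 0.00103). Trib3, a pseudokinase gene, had 232, 341 and 360.5 normalised reads in the KO libraries and 39.1, 0 and 0 in the CON libraries (log2 difference 2.07, SE 0.31, adjusted p = 0.00213), and Ddit3, the gene of the transcription factor CHOP, had 606, 1057 and 1125 normalised reads in the KO libraries and 229, 368 and 353 in the CON libraries (log2 difference 1.18, SE 0.27, adjusted p = 0.0177); these last 2 were singled out with values in view. KO and CON did not overlap in any of the 4. Ddit3 lost its call when KO 2 or KO 3 was left out (adjusted p up to 0.104). Trib3 had no read in CON 2 and CON 3, and with voom on recovered reads it missed the threshold (adjusted p = 0.0694). It passed the filter on the mean of all 6 libraries only through its KO values, so its place among the 4 rests on them. The macrophage sums given above are higher in the same libraries, and their part in these values was not tested.

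**Figure D4:**
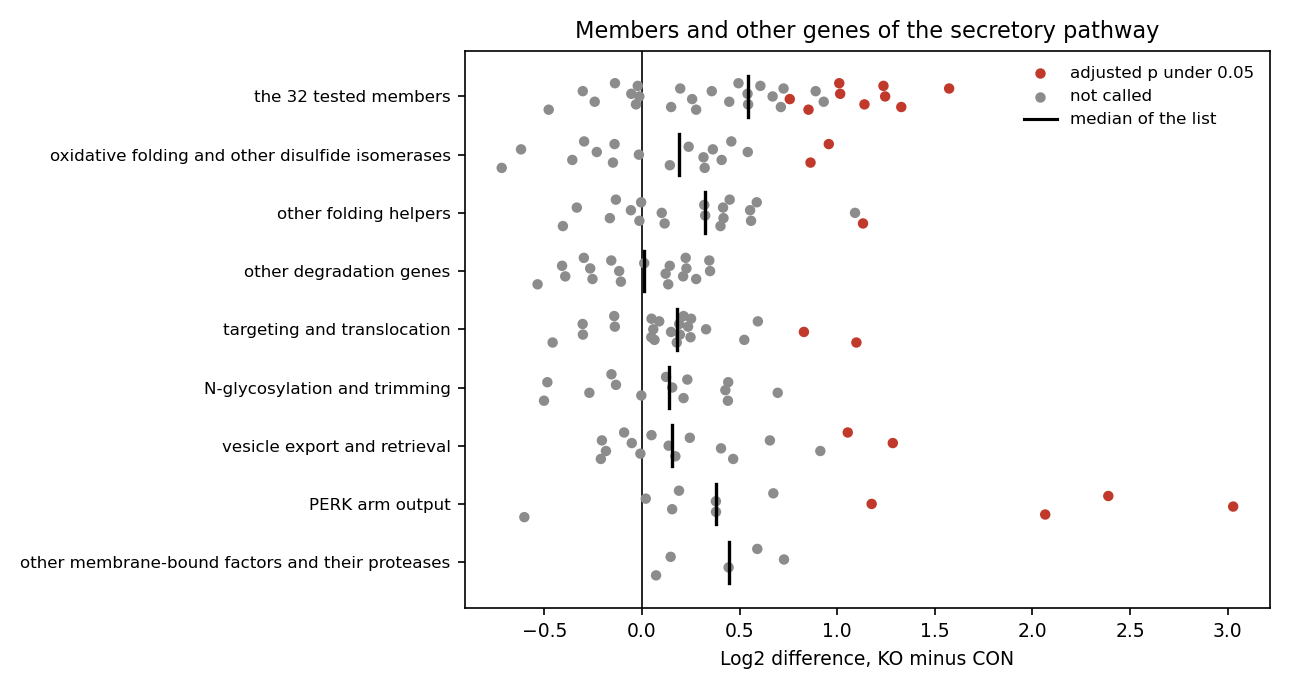
Log2 difference (KO minus CON) of each tested gene in the list of members and in 8 further lists of the secretory pathway; red points passed an adjusted p of 0.05, vertical bars are list medians, and points are spread vertically for legibility. The members have a median of 0.54, the other degradation genes one of 0.01, and the list of PERK arm output reaches 3.03 with Atf3.

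The scaling of the libraries bears on the level of all differences. Dividing reads by the library total moved the median log2 difference of all genes to 0.86, and dividing by reads outside crystallins moved it to 0.23, so differences are also given relative to it. Taking off that median removes any shift shared by all genes, so the relative values with equal medians equal those reported and the 3 voom scalings lie close together. On this relative measure, 24 of the 32 members were higher in KO under all 6 scalings, Dnajb11, Edem3, Selenos and Syvn1 were lower under all 6, and Derl2, Pdia6, Ppib and Sec61b changed side. Over all genes the calls were 793 higher and 504 lower on the deposited values, 643 and 717 with equal library medians, and 421 and 472 with voom on recovered reads. The 9 members that rose were all called again with voom, and 6 of them with equal medians, where Sdf2l1 (adjusted p = 0.0506), P4hb (0.0518) and Manf (0.127) missed the threshold.

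**Figure D5:**
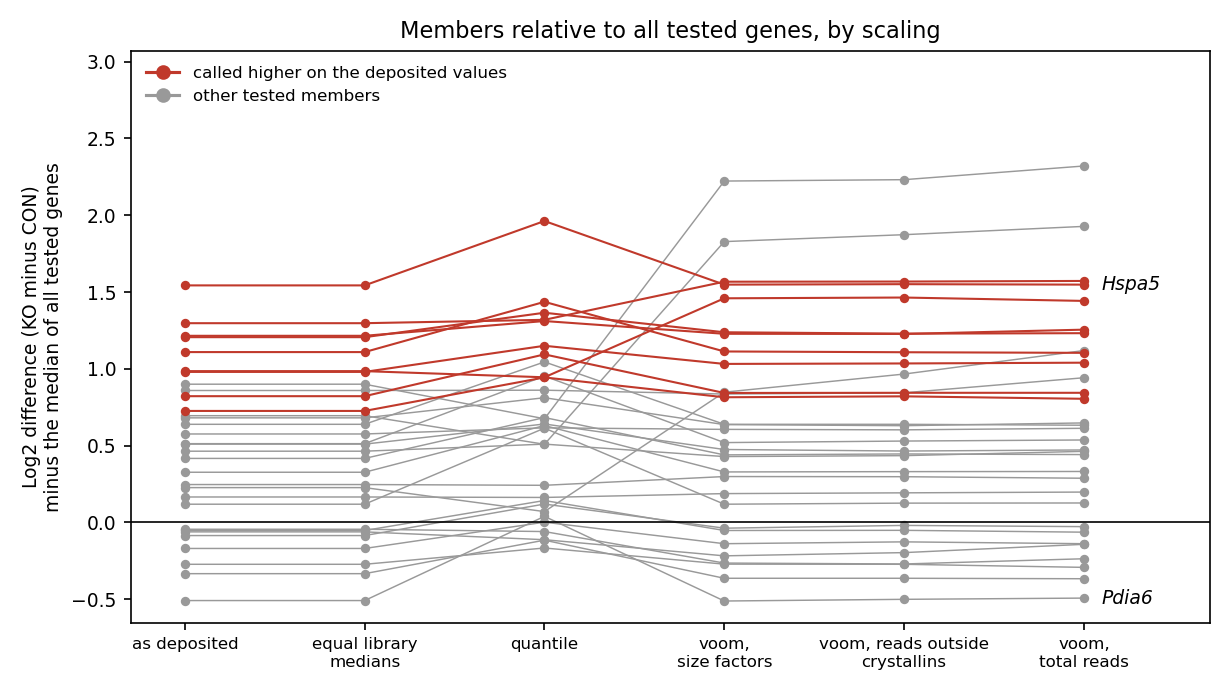
Log2 difference (KO minus CON) of the 32 tested members minus the median of all tested genes, under 6 scalings; red lines are the 9 genes called higher on the deposited values. The red lines stay above 0.7 throughout, and Pdia6, at -0.51 on the deposited values, is the lowest grey line there.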

How the data were processed

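RNA sequencing was done on 6 newborn mouse lens libraries, 3 labelled Gclc KO and 3 Gclc CON. Total RNA of lenses kept in RNAlater was extracted with an RNeasy Micro kit and made into libraries with a NEBNext low-input kit, per the labels' protocols. Trimmomatic, the aligner HISAT2 2.1.0, the genome build mm9, the read counter featureCounts 1.6.4 and DESeq2 (given as 2.11.0.6) are named, per the submitters' processing notes. The deposited values are log2 expression after the authors' variance-stabilising transformation, in 1 table of 27179 genes by Entrez identifier; 25275 identifiers were matched to a symbol.

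The transformation was inverted, and reads were recovered as whole numbers (all values within 0.1 of a whole read); they served for normalised reads, shares and floors. A count of 0 was taken to allow 3 reads, and floors cover counting error only. KO was compared with CON on the deposited values with limma 3.58.1 (R 4.3.3; lmFit, eBayes with trend), over the 11468 genes whose mean lay at least 1 unit above the lowest value (6.50), and p-values were Benjamini-Hochberg adjusted over all of them (threshold 0.05). The fit was tested on simulated data. Read totals per library were 20361430 to 61219009. The alternatives were other filters, other scalings, voom on recovered reads, a pseudocount of 1, no trend, each library left out, the style of library names as a covariate and a replicate block. All 34 members, Gclc and up to 2 called genes per further list and direction were named. In the list of PERK arm output, Trib3 and Ddit3 were named as well, with values in view. The members and lists were chosen with earlier results of these data known. Equal replicate numbers were not taken as pairs, because the labels state no pairing. Promoter windows and the Xbp1 intron were taken from GRCm38 annotation (RefSeq GRCm38.p6 and GENCODE M21), not from the build of the alignment. Protein features were not used here. Python 3.11.15 with pandas 2.3.3, numpy 2.4.6 and matplotlib 3.10.9 was used for the rest.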

Additional observations from a re-analysis of the deposited data

How the results depend on the processing

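The summed share of the 34 genes outside crystallins differed between KO and CON by 0.493 percentage points, and by 0.471 to 0.523 with a library left out. The count of members that rose ran from 4 to 10 with a library left out and was 0 for members that fell; their median ran from 0.41 to 0.63. Over all genes these fits gave 328 to 1106 higher and 170 to 857 lower calls, and over the 8 further lists 4 to 12 higher and 0 to 5 lower. With reads divided by library totals, 23 members, 70 genes of the lists and 3314 of all genes were called higher and 85 of all lower, the members' median was 1.44, and all 8 members with a negative difference turned positive while staying under the median of all genes (0.86); Pdia6 (0.37), Ppib (0.72), Derl2 (0.80) and Sec61b (0.83) then passed the test, and Dnajb11, Edem3, Selenos and Syvn1 did not. With a covariate for the style of library names, which KO 2 and KO 3 share so that KO 1 alone stands against CON, 1 member, 2 genes of the lists and 204 of all genes were higher and 39 of all lower. A filter of 3 units left 92 of the 126 list genes, of which 6 rose, and 340 genes higher in all. Voom with size factors called 421 of all genes higher, and equal medians gave the members a median of 0.42. Voom on reads outside crystallins, added after seeing the data, gave a members' median of 0.80, beside 0.235 over all genes, and 292 genes lower. The cause of these shifts was not tested. With the replicate block, 6 members rose (Sdf2l1, P4hb and Manf were lost) and 309 of all genes fell. How many of all genes rose in that fit is not given here, so the 6 stand without a matching share. Correlations between libraries of equal number, after centring within each group, were -0.36, -0.13 and -0.14. With 3 libraries per group they cannot settle whether samples were paired, and the labels state no pairing. Over 17 alternatives, single tested members gave 481 verdicts equal to that reported, 34 lost calls, 19 gained calls and 4 calls with the opposite sign. The sign of the difference, called or not, turned 30 times in 11 members, 0 of them among the 9 that rose; besides the 8 negative members these were Canx, Hyou1 and Uggt1. With 3 libraries per group and few reads in CON 2, the low sensors Ern1 and Eif2ak3 were beyond a firm measurement.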

Other observations

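An ERSE also stood in the promoter windows of 6 tested genes outside the list of 34, and none of them was called by limma. Ero1b, an oxidase that feeds disulfide bonds to the isomerases, had a log2 difference (KO minus CON) of 0.41 (adjusted p = 0.372). Alg12, a mannosyltransferase gene of glycan assembly, had 0.24 (adjusted p = 0.684); its window shares 173 bases with that of Creld2 on the opposite strand, and Creld2 rose by 1.33. Spats2l had 0.72 (adjusted p = 0.156), Pan2 0.69 (adjusted p = 0.268), Hnrnpa3 -0.28 (adjusted p = 0.564) and Tdrd9 a value near 0 (adjusted p = 0.995).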
